A study of Homo sapiens with 2 samples.

Results

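The cell surface antigen genes described here are FOLH1, STEAP1, STEAP2, PSCA, TRPM8, PTK7, DLL3 and CD46, whose proteins have been used or proposed as targets of antibodies, radioligands or engineered T cells in prostate cancer. They were taken by name as a list, which was drawn up with earlier results of these data known, and all 8 were found among the 60671 genes of the count table. C4-2B cells, a human castration-resistant prostate cancer (CRPC) line derived from LNCaP cells, were grown with vehicle or with 1 µM (R)-9b overnight. (R)-9b is a small-molecule inhibitor of the tyrosine kinase ACK1 (TNK2). Each condition gave 1 library of poly-A RNA, and so is a single sample of a single cell line grown alone, without immune or stromal cells. The dose and time come from the sample labels, which give the same treatment text for both libraries and separate vehicle from (R)-9b in another field.

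A surface antigen serves as a target when its protein stands on tumour cells at a high level and is scarce on vital normal tissue, and RNA is only one of the steps that set how much protein reaches the membrane. Several of these genes, among them FOLH1, TRPM8 and the STEAP genes, are known to respond to androgens, the hormones on which most prostate cancers depend. Their products differ in kind. FOLH1 encodes PSMA, a peptidase that trims glutamate from folates and dipeptides, and PSCA encodes a lipid-anchored protein of the LY6/uPAR family. STEAP2 encodes a metalloreductase with a 6-pass membrane domain, and STEAP1 a relative that lacks the part binding NADPH. TRPM8 encodes the cold- and menthol-sensing cation channel, PTK7 a receptor-like pseudokinase of the WNT planar polarity pathway, DLL3 an inhibitory Notch ligand, and CD46 a cofactor for the cleavage of complement C3b and C4b.

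The libraries held 65207444 counts in vehicle and 57653965 in (R)-9b. The comparison took in 23446 genes whose counts in both libraries summed to 10 or more, all 8 antigen genes among them. Counts were scaled with the TMM factors of edgeR, 1.02 for vehicle and 0.979 for (R)-9b, and each ratio of (R)-9b to vehicle carries an exact (Clopper-Pearson) 95% interval. Intervals cover counting error only, and no test of the conditions was possible, because the spread between cultures was not measured. "Higher" and "lower" below therefore compare these 2 libraries. Mitochondrially encoded genes took 1.49% of the counts in vehicle and 9.54% in (R)-9b, and their part in the ratios was not tested. With those genes left out of the totals, every log2 ratio stood 0.063 above its TMM value. Low counts were mostly even, 72.2% of the genes with 1 to 20 counts in vehicle and 70.3% in (R)-9b. Whether both mates of a read pair were counted was not tested, and intervals were also computed on halved counts.

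The sample labels name the tumour type as breast cancer, whereas the line is known as a prostate line, and the marker genes were read against both. KLK3, which encodes prostate-specific antigen, had 146597 counts in vehicle and 297728 in (R)-9b. HOXB13, a prostate lineage factor, had 15362 and 18619 counts, respectively. The breast markers ESR1 and SCGB2A2 had 2 and 0 counts in each library, whereas TRPS1 had 906 and 516, PIP 124 and 595 and TFF1 41 and 73. The immune marker PTPRC had 0 counts in both libraries, and CD3E had 2 and 0. The neuroendocrine markers CHGA, INSM1 and NEUROD1 each had at most 3 counts in a library, and SYP had 164 and 180. Of 8 neuroendocrine markers 4 were tested, 1 lay above no difference (SYP) and 0 below it. Of 11 immune, endothelial and stromal markers 5 were tested, 2 lay above no difference and 2 below it. Among all genes tested, 29.8% lay above no difference and 31.1% below it. The stromal collagen gene COL1A1 had 1114 and 2004 counts, the endothelial gene VWF 769 and 411, ACTA2 96 and 31, and CD68 4 and 12, whereas COL1A2, DCN and CD14 had at most 3 counts in a library. Prostate markers were thus abundant, and the part of other cell types in the ratios below was not tested.

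RefSeq start sites of GRCh38.p14 were used for 5 of the 8 genes, STEAP1, STEAP2, CD46, TRPM8 and PTK7. The 250 bases before the start are shown for TRPM8 and PTK7, the antigen genes whose ratios were highest, and for STEAP1 beside its paralog STEAP1B, since these upstream sequences are nearly identical. Capitals mark a TATAAA motif in TRPM8, the GGGCGG motif (GC box) in PTK7, and in the STEAP1 pair the bases at which both sequences differ. The windows are chr2:233917123-233917372 (plus strand), chr6:43076064-43076313 (plus strand), chr7:90154219-90154468 (plus strand) and chr7:22500189-22500438 (minus strand), in the order shown.
TRPM8: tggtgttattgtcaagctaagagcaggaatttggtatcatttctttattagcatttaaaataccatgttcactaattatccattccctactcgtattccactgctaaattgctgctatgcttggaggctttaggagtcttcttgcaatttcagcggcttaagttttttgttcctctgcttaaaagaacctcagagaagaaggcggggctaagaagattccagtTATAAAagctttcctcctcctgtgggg
PTK7: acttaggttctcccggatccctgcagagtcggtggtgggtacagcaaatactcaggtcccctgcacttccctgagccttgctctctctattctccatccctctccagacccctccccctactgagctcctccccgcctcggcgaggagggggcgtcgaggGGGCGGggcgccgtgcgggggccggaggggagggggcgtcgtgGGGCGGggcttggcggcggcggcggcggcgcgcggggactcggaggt
STEAP1: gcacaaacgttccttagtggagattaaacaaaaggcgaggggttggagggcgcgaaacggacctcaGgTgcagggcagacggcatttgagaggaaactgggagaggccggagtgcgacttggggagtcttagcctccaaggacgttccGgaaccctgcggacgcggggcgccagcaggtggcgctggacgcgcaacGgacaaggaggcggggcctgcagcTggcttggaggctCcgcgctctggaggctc
STEAP1B: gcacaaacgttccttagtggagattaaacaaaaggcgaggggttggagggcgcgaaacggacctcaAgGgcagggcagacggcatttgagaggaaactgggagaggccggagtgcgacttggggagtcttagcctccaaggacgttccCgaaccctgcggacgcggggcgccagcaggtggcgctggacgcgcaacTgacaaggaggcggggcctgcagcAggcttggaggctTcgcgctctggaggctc

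The TRPM8 window held 1 TATAAA match, which began 27 bases before the start, and its GC content was 40.0%. The PTK7 window held 2 GGGCGG matches, 90 and 47 bases before the start, and its GC content was 71.6%. The median GC content over all 35116 RefSeq windows was 58%. Searched on both strands, TATAAA occurred in 10.7% of those windows, GGGCGG in 42.6% and CACGTG (E-box) in 6.34%. CD46 had 3 GGGCGG matches, and STEAP2 had 1 GGGCGG match. STEAP1 and STEAP1B held none of these motifs, and STEAP1B was identical to STEAP1 at 244 of 250 bases (97.6%). A match describes letters in this window and is not evidence of binding.

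Per kilobase of exon, the 8 genes spanned a wide range of levels. In vehicle, FOLH1 was highest at 207 CPM (counts scaled to library size) per kb, followed by STEAP1 at 102 and STEAP2 at 52.6. CD46 stood at 13.2 CPM per kb, TRPM8 at 6.27 and DLL3 at 4.93. The lowest were PSCA at 2.07 CPM per kb and PTK7 at 1.37. Of the genes tested that had an annotated exon length, 99.4% lay below FOLH1 in level per kb in vehicle, and 47.1% lay below PTK7. In the (R)-9b library the first 6 genes kept this order, with 206 CPM per kb for FOLH1, 140 for STEAP1, 50.03 for STEAP2, 17.7 for CD46, 13.9 for TRPM8 and 6.54 for DLL3. The last pair changed places, since PTK7 stood at 2.63 CPM per kb (95% counting interval 2.49 to 2.77) and PSCA at 1.93 (1.67 to 2.22). No neighbours in either order had overlapping counting intervals. Dividing by the length of the most abundant transcript in vehicle instead of by all exon bases, an alternative chosen after the data had been seen, gave the same order in both libraries. That alternative kept the same gene counts, and no order was made from estimated transcript counts. In vehicle, DLL3 and PTK7 had 859 and 823 gene counts but 86.7 and 282 estimated transcript counts.

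**Figure D1:**
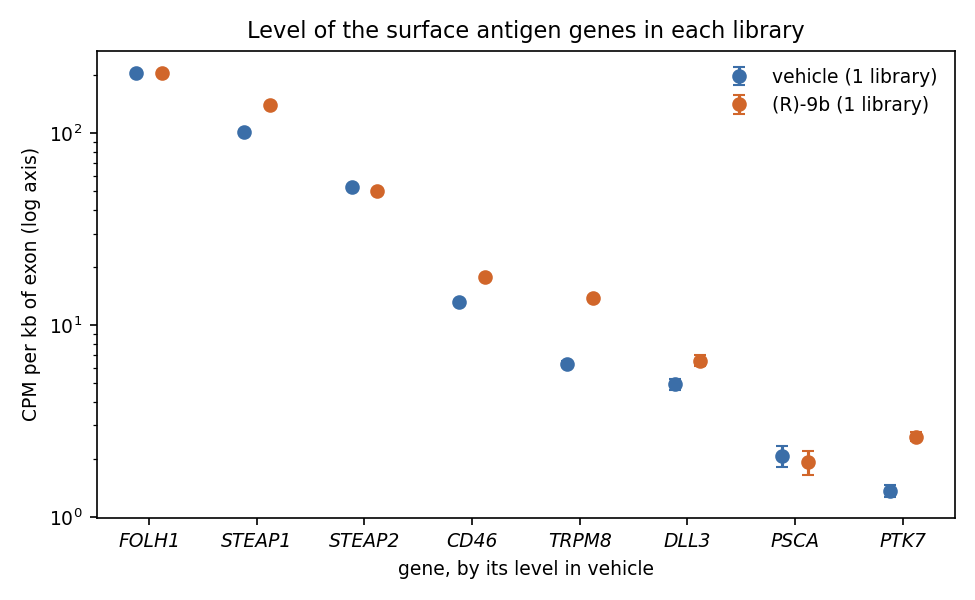
Level of each surface antigen gene in CPM per kb of exon (log axis) in the vehicle library (blue) and the (R)-9b library (orange), 1 library each, with exact 95% counting intervals, most of them smaller than the points. FOLH1 sits at 207 and 206, TRPM8 at 6.27 and 13.9, and PTK7 passes PSCA in (R)-9b.

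TRPM8 and PTK7 had the highest ratios among the antigen genes, STEAP1, CD46 and DLL3 lay moderately above no difference, and FOLH1, STEAP2 and PSCA lay close to it. The whole interval lay above no difference for 5 of the 8 genes, against 29.8% of all genes tested. It lay below no difference for 1 of the 8, STEAP2, against 31.1%. Beyond 1.5-fold, 2 genes were higher, TRPM8 and PTK7, against 8.71% of all genes, and 0 were lower, against 7.74%. Beyond 2-fold, 1 gene was higher, TRPM8, against 4.2%, and 0 were lower, against 3.44%. The median log2 ratio of the 8 genes was 0.42, and that of all 23446 genes was -0.0049. With 8 genes chosen by name, these counts are a description, and nothing particular to the group was tested. In bulk RNA, fewer cells that express a gene and less RNA per cell cannot be told apart.

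**Figure D2:**
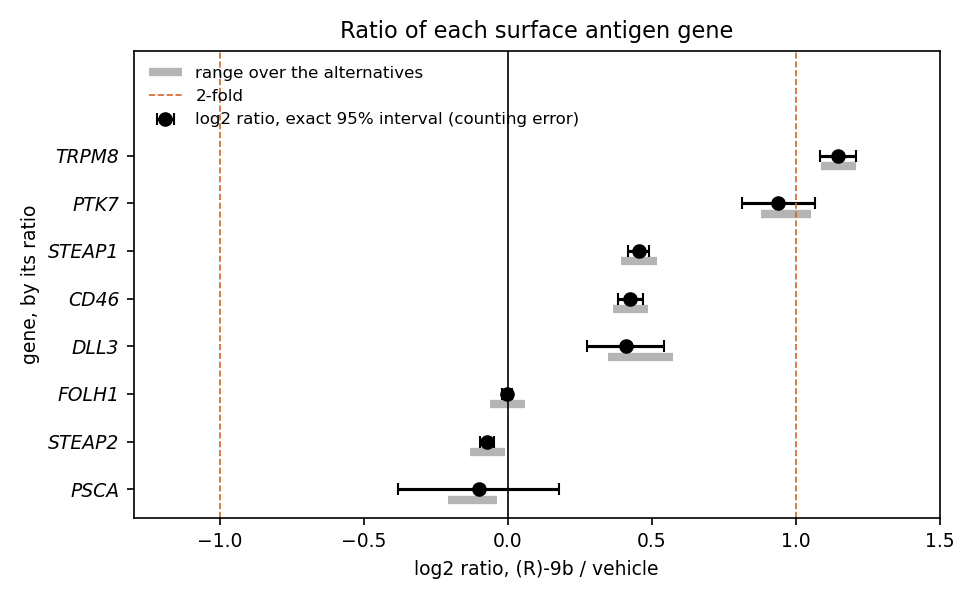
Log2 ratio of (R)-9b to vehicle for each surface antigen gene (black points) with its exact 95% counting interval, and the range over the alternatives in scaling and input (grey bars). TRPM8 alone lies wholly beyond 2-fold (dashed line) at 1.15, and FOLH1, STEAP2 and PSCA lie near 0.

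TRPM8 (ENSG00000144481) lies on the plus strand of chromosome 2 from 233917398 to 234019522 in GENCODE 29 on GRCh38, the annotation used for all positions below. It had 3298 counts in vehicle and 6191 in (R)-9b, or 49.5 and 110 CPM. The (R)-9b library was 2.21-fold higher (95% interval 2.12 to 2.31), a log2 ratio of 1.15. On halved counts the log2 interval was 1.06 to 1.23. Of all genes tested, 90.3% had a lower ratio, which placed TRPM8 at rank 2277 from the highest. The gene AC005538.1 on the opposite strand shares 119 exon bases (1.51%) with TRPM8 and had 0 counts in vehicle and 2 in (R)-9b.

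The estimated counts of TRPM8 transcripts rested mainly on TRPM8-201, a protein-coding transcript of 5621 bases, at 966 in vehicle and 1792 in (R)-9b. Its share of the gene was 72.8% and 75.3%, respectively. The short coding transcript TRPM8-207, of 1592 bases, held 17.7% and 8.69%. Transcripts annotated with a retained intron held 5.97% and 8.65%, and those subject to nonsense-mediated decay 3.11% and 6.32%. The higher level of TRPM8 in (R)-9b was thus also present in its leading coding transcript. From the summed estimated counts, the log2 ratio of TRPM8 was 1.09 (0.99 to 1.19), and its interval no longer lay wholly beyond 2-fold.

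PTK7 (ENSG00000112655) lies on the plus strand of chromosome 6 from 43076268 to 43161719. It had 823 counts in vehicle and 1338 in (R)-9b, or 12.4 and 23.7 CPM. The ratio was 1.92-fold (95% interval 1.76 to 2.09), a log2 ratio of 0.94, so the interval lay wholly above 1.5-fold and included 2-fold. The halved-count log2 interval was 0.76 to 1.12. Of all genes tested, 87.6% had a lower ratio. PTK7 was therefore second among the antigen genes in ratio while, by gene counts, it was the lowest in level per kb in vehicle.

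For PTK7 the estimated counts were divided differently between transcripts in the 2 libraries. PTK7-202, a coding transcript of 4272 bases, had an estimated count of 156 (55.2% of the gene) in vehicle and 468 (94.9%) in (R)-9b. PTK7-205, a coding transcript of 4023 bases, had 101.1 (35.8%) in vehicle and was listed at 0 in (R)-9b. The error of these estimates is not in the deposited table, and such a value of 0 can be a failed estimate. The whole gene rested on 282 and 493 estimated counts, which are fewer than its gene counts.

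STEAP1 (ENSG00000164647) and STEAP2 (ENSG00000157214) are neighbours on the plus strand of chromosome 7, at 90154375 to 90164829 and 90167590 to 90238137. Their ratios differed in direction. STEAP1 had 11025 counts in vehicle and 12810 in (R)-9b, or 166 and 227 CPM, a ratio of 1.37-fold (95% interval 1.34 to 1.41) and a log2 ratio of 0.45. STEAP2 had 30538 and 24620 counts, or 459 and 436 CPM, a ratio of 0.951 (0.935 to 0.967) and a log2 ratio of -0.073. The intervals of the neighbouring genes did not overlap, on the counts as deposited or halved. The call of STEAP2 depended on scaling, since its interval included no difference once mitochondrially encoded genes were left out of the totals (a log2 ratio of -0.010). The interval of STEAP1 stayed above no difference under each scaling tried.

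STEAP1-201 held 92.0% of the estimated counts of STEAP1 in vehicle and 90.4% in (R)-9b. STEAP2 was spread over STEAP2-202, at 62.4% and 63.9%, and STEAP2-201, at 24.5% and 26.1%. The coding transcript STEAP2-203 had an estimated count of 756 (6.56%) in vehicle and was listed at 0 in (R)-9b. Among the other genes of the family, STEAP1B had 404 and 443 counts, with a log2 ratio of 0.37 (0.17 to 0.57). The metalloreductase genes STEAP3 and STEAP4 had log2 ratios of 0.26 (0.18 to 0.35) and 3.33 (2.62 to 4.12). STEAP4 was a low gene, with 18 counts in vehicle and 153 in (R)-9b. It was the only one of the 3 wholly beyond 2-fold higher, against 4.2% of all genes tested. STEAP2-AS1 lies on the opposite strand across both loci without sharing an exon base with either gene, and had 3 and 20 counts.

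FOLH1 (ENSG00000086205) is a minus-strand gene of chromosome 11, at 49146635 to 49208670. It had 52660 counts in vehicle and 44545 in (R)-9b, which after scaling were 791 and 789 CPM. The ratio was 0.997 (95% interval 0.985 to 1.01), a log2 ratio of -0.0037, and 50.1% of all genes had a lower ratio. FOLH1 therefore lay in the middle of all genes in ratio while it was the highest of the antigen genes in level. Its sign differed between scalings. The log2 ratio was -0.064 with total counts and 0.059 with totals that left out mitochondrially encoded genes, and each of those intervals excluded no difference.

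Part of the FOLH1 transcript has the same sequence as its paralog over the length of a read. Of the 150-base windows along FOLH1-203, 14.2% (320 of 2254) occurred unchanged in a transcript of FOLH1B. For the most abundant transcripts of the other 7 antigen genes, 0 windows were shared with another gene. FOLH1B had 1575 counts in vehicle and 1492 in (R)-9b, a log2 ratio of 0.16 (0.057 to 0.26). Reads were paired, and whether a mate outside the shared windows placed such reads in either gene was not tested. Within FOLH1, FOLH1-203 held 54.1% and 51.9% of the estimated counts and FOLH1-201, the longer coding form, 13.9% and 15.3%. FOLH1-206, which is annotated as subject to nonsense-mediated decay, held 20.9% and 20.5%.

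The peptidase and transferrin receptor family of FOLH1 had 6 genes, all of which were tested. The whole interval lay above no difference for 4 and below it for 0, against 29.8% and 31.1% of all genes tested. The family's median log2 ratio was 0.43. TFRC, which encodes the transferrin receptor that imports iron, had 11978 counts in vehicle and 22132 in (R)-9b, a log2 ratio of 1.12 (1.09 to 1.16). TFRC was the family's only gene wholly beyond 2-fold higher, against 4.2% of all genes tested. TFR2, a relative of TFRC that senses iron-loaded transferrin, had a log2 ratio of 0.69. NAALADL2 had a log2 ratio of 0.18.

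PSCA (ENSG00000167653) lies on the plus strand of chromosome 8 from 142670308 to 142682724. It was a low gene, with 243 counts in vehicle and 192 in (R)-9b, or 3.65 and 3.40 CPM. The ratio was 0.932 (95% interval 0.767 to 1.13), a log2 ratio of -0.10, so no difference was detectable at this depth. JRK on the opposite strand shares 368 exon bases (20.9%) with PSCA and had 2280 and 1719 counts, a log2 ratio of -0.17 (-0.26 to -0.079). The strand setting of the counting is not given in the sources used here, so reads of PSCA and JRK in the shared stretch may not have been told apart. PSCA-201 held 89.4% and 83.9% of the gene's estimated counts, which came to only 118 and 86.0.

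Of 24 other genes of the LY6/uPAR family, whose products are small three-finger proteins that often hang on a lipid anchor, 12 were tested. The whole interval lay above no difference for 6 and below it for 2, against 29.8% and 31.1% of all genes tested. Their median log2 ratio was 0.46. CD59, which blocks the final pore of complement, had 2688 and 3357 counts, a log2 ratio of 0.56 (0.48 to 0.63). LYNX1, a modulator of nicotinic receptors, had a log2 ratio of 0.86. LY6G5B went from 7 counts in vehicle to 46 in (R)-9b, LYPD6B had a log2 ratio of -0.71, and LYPD4 had 16 counts in vehicle and 0 in (R)-9b.

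CD46 (ENSG00000117335) lies on the plus strand of chromosome 1 from 207752057 to 207795513. It had 7652 counts in vehicle and 8714 in (R)-9b, or 115 and 154 CPM, a ratio of 1.34-fold (95% interval 1.30 to 1.38) and a log2 ratio of 0.43. The pseudogene CD46P1 had 64 and 68 counts, with an interval that included no difference. CD46-203 held 59.8% and 60.1% of the estimated counts, while CD46-204 held 25.2% and 14.9%. The processed transcript CD46-212, which is not annotated as coding, held 1.01% and 7.08%, and the coding CD46-207 was listed at 0 in vehicle and held 5.01% in (R)-9b. All coding transcripts together held 97.5% of the gene in vehicle and 89.4% in (R)-9b.

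CD46 shares its role with other complement regulators, which lay on both sides of no difference. Of 11 listed genes, 6 were tested, 3 lay above no difference and 1 below it, against 29.8% and 31.1% of all genes. Their median log2 ratio was 0.41. CD55, which speeds the decay of the complement convertases, had 2863 counts in vehicle and 354 in (R)-9b, a log2 ratio of -2.78 (-2.94 to -2.62). CD59 (above) and CLU, a secreted chaperone that binds the terminal complex, lay on the other side, CLU at 0.46 (0.41 to 0.51). C4BPB rested on 8 and 18 counts. Among the membrane-bound regulators, CD46 and CD59 were thus higher in the (R)-9b library while CD55 was lower.

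DLL3 (ENSG00000090932) lies on the plus strand of chromosome 19 from 39498895 to 39508481. It had 859 counts in vehicle and 967 in (R)-9b, or 12.9 and 17.1 CPM, a ratio of 1.33-fold (95% interval 1.21 to 1.46) and a log2 ratio of 0.41. DLL3 had 9.91 gene counts for each estimated transcript count in vehicle, where the median over 11200 protein-coding genes was 2.75 and the other antigen genes lay between 2.06 and 3.85. Of those coding genes, 89.8% lay below DLL3. Its estimated counts were 86.7 and 109, of which DLL3-201 held 97.6% and 99.1%. DLL3 is best known from neuroendocrine tumours, and of their markers CHGA and INSM1 had at most 3 counts in a library here, while SYP had 164 and 180, a log2 ratio of 0.37 (0.059 to 0.69).

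Of 24 genes of the Notch pathway, 20 were tested. The whole interval lay above no difference for 11 and below it for 6, against 29.8% and 31.1% of all genes tested. With total counts these numbers were 8 and 7, and on halved counts 8 and 6. The pathway's median log2 ratio was 0.15. The Notch targets HEY1 and HES1 had log2 ratios of 1.49 (1.13 to 1.86) and 1.03 (0.92 to 1.14). HEY1 was the only gene of the pathway wholly beyond 2-fold, against 4.2% of all genes tested higher and 3.44% lower. The ligand DLL4 had 46 and 96 counts, a log2 ratio of 1.30. The receptor NOTCH1 had 11086 and 6516 counts, a log2 ratio of -0.53, and NOTCH4 had 54 and 19. MAML2, a coactivator of the Notch complex, had a log2 ratio of -0.66.

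**Figure D3:**
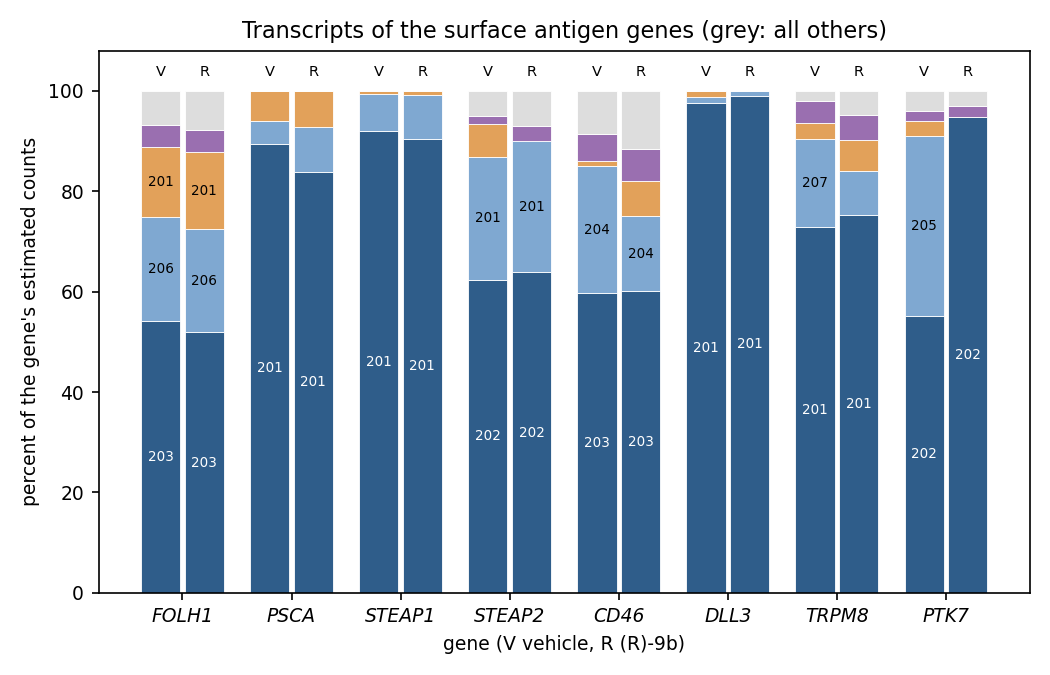
Share of each transcript in the estimated counts of its gene (percent, bars stacked to 100) in vehicle (V) and (R)-9b (R), with the number of the transcript's name in the larger segments, the 4 leading transcripts coloured and the others in grey. PTK7-205 holds 35.8% in vehicle and is listed at 0 in (R)-9b, while the leading transcripts of STEAP1 and DLL3 hold over 90% in both libraries.

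The other channels of the TRPM family were compared with TRPM8. Of 7 genes, 6 were tested, 3 lay above no difference and 1 below it, against 29.8% and 31.1% of all genes. Of these channels, 0 lay wholly beyond 2-fold in either direction, against 4.2% of all genes tested higher and 3.44% lower. TRPM2, a channel opened by ADP-ribose, had 3650 and 4557 counts, a log2 ratio of 0.56 (0.50 to 0.62). TRPM4, a calcium-activated channel, had a log2 ratio of 0.11 (0.055 to 0.16), and TRPM7, a channel joined to a kinase, one of -0.22 (-0.28 to -0.16). TRPM3 rested on 6 and 18 counts, with a log2 ratio of 1.82 (0.43 to 3.44), and TRPM5 on 27 and 38, with one of 0.73 (-0.019 to 1.499). The interval of TRPM8 overlapped those of TRPM3 and TRPM5, and lay above those of TRPM2, TRPM4, TRPM6 and TRPM7.

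Of 29 genes of WNT and planar polarity signalling, the pathway of PTK7, 26 were tested. The whole interval lay above no difference for 13 and below it for 9, against 29.8% and 31.1% of all genes tested. Their median log2 ratio was 0.14. The WNT receptors FZD2, FZD7 and FZD8 had log2 ratios of -1.36, -1.29 and -1.10. Of the 26 genes, FZD2 and FZD7 lay wholly beyond 2-fold lower, against 3.44% of all genes tested. The signal transducer DVL1 and the co-receptor LRP5 had log2 ratios of 0.52 and 0.47. PRICKLE2, a core planar polarity gene, went from 18 to 79 counts, a log2 ratio of 2.37 (1.62 to 3.20). PTK7 thus lay above no difference in a pathway whose genes lay on both sides of it.

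The antigen genes were also set beside 24 other genes whose surface proteins are targets in carcinomas, of which 22 were tested. The whole interval lay above no difference for 11 and below it for 7, against 29.8% and 31.1% of all genes tested. Their median log2 ratio was 0.29, and 1 gene lay wholly beyond 2-fold in each direction, against 4.2% of all genes higher and 3.44% lower. SLC45A3, which encodes the prostate protein prostein, had 17030 and 46406 counts, a log2 ratio of 1.68 (1.66 to 1.71), above TRPM8. F3, which encodes tissue factor, was lower, with 58 and 7 counts. SSTR2 and MUC1 had log2 ratios of 1.28 and 1.05, and EPCAM and ALCAM, both adhesion molecules, ratios of -0.53 and -0.37.

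Among the 8 prostate markers tested, the whole interval lay above no difference for 6 and below it for 2. The shares over all genes tested were 29.8% and 31.1%. The median log2 ratio of the prostate markers was 0.39. KLK2 and KLK3, androgen-responsive genes that encode secreted proteases, had log2 ratios of 1.44 and 1.26, and both lay wholly beyond 2-fold, as TRPM8 did. Of all genes tested, 4.2% lay wholly beyond 2-fold higher. HOXB13 had a log2 ratio of 0.52 and TMPRSS2 one of 0.17. FOXA1 and ACP3 had log2 ratios of -0.15 and -0.43. FOLH1 and TMPRSS2 lay nearer to no difference than KLK3 and TRPM8, and the part of androgen response in these ratios was not tested. Of 9 breast markers, 7 were tested, 2 lay above and 2 below no difference, beside the same shares of all genes. The median log2 ratio of those tested was -0.57. PIP, which encodes prolactin-induced protein, had 124 and 595 counts and a log2 ratio of 2.5. TFF1 had one of 1.07 and TRPS1 one of -0.57. SCGB1D2 had 34 and 8 counts, GATA3 38 and 30, PGR 10 and 2, and MUCL1 8 and 2.

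**Figure D4:**
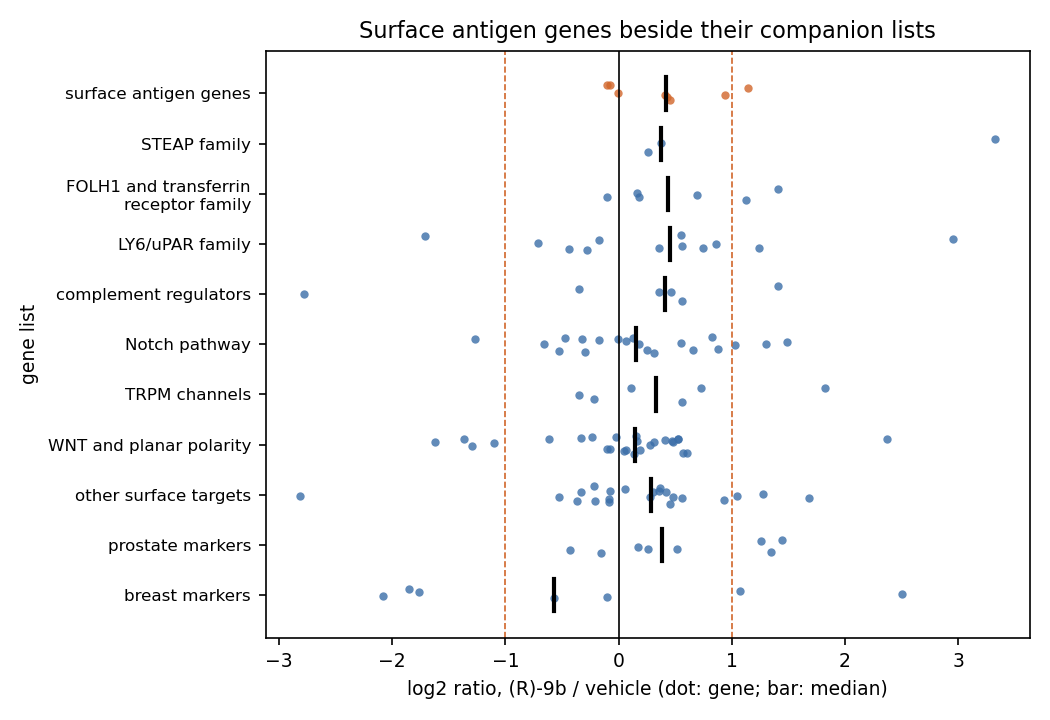
Log2 ratio of (R)-9b to vehicle for each tested gene (dots) of the surface antigen genes (orange) and of their companion lists (blue), with the median of each list (black bar) and 2-fold in either direction (dashed lines). The antigen genes have a median of 0.42, LYPD4 is drawn at the end of its interval nearest 0, and the lists reach to 3.33 for STEAP4 and to -2.81 for F3.

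**Figure D5:**
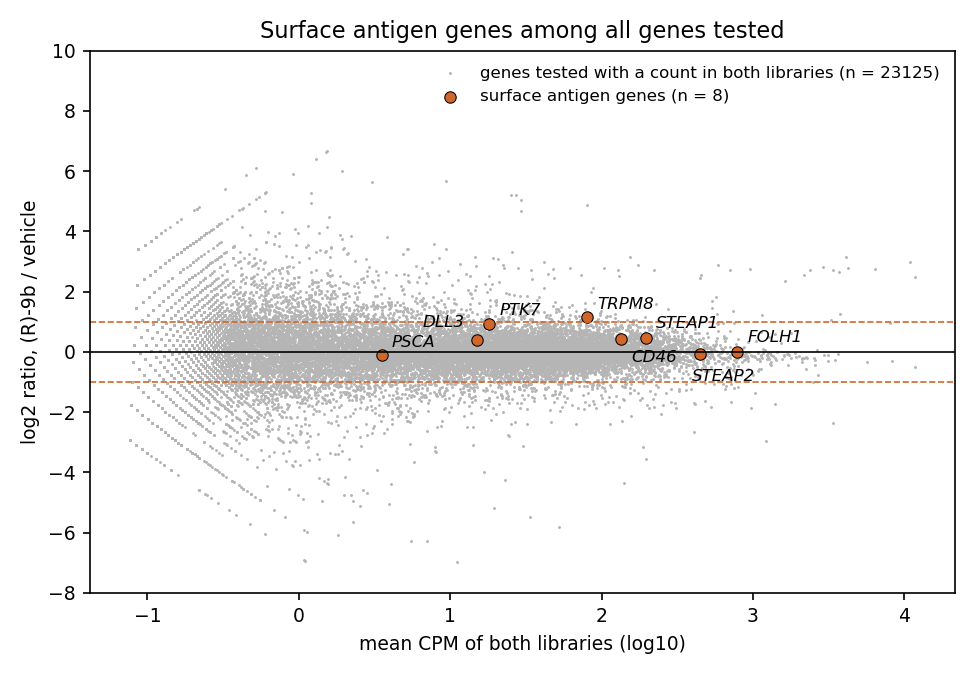
Log2 ratio of (R)-9b to vehicle against the mean CPM of both libraries (log10) for the 23125 genes tested that had a count in both libraries (grey) and the 8 surface antigen genes (orange). TRPM8 is the only antigen gene drawn above the 2-fold line, at 1.15, and FOLH1 is the most abundant.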

How the data were processed

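RNA sequencing of C4-2B cells treated with vehicle or (R)-9b was analysed, with 1 library per condition. Reads were aligned by the authors with STAR on GRCh38, and the deposited gene counts are whole numbers without normalization. The authors also deposited CPM and moderated log2 CPM of the same genes, and a transcript table of estimated counts with CPM. The submitters' processing notes name STAR 2.5.1a, Subread, featureCounts 1.4.6-p5, Salmon 0.8.2, edgeR and limma without roles, and the paper names another STAR version. A moderated log2 table of transcripts was not used here.

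After 200 repeated lines were dropped, the counts were scaled by TMM (edgeR 4.0.16, R 4.3.3). Ratios with exact (Clopper-Pearson) 95% intervals were computed with Python 3.11.15, numpy 2.4.6, scipy 1.17.1 and pandas 2.3.3 where a gene had 10 or more counts in all, and figures were drawn with matplotlib 3.10.9. A gene was called where the whole interval lay past no difference, 1.5-fold or 2-fold. The calculation was tested on simulated counts drawn independently, which lacked the excess of even low counts seen in these data. Gene positions and lengths came from GENCODE 29, another release than the authors' annotation on the same build. Sharing of reads was described by windows of 150 bases along the transcript with the highest estimated count in vehicle. The genes, the companion lists and the motifs were chosen with earlier results of these data known. Named are the 8 antigen genes, their paralogs and overlapping genes, and up to 3 of the highest and 3 of the lowest genes of each list, ordered by whichever end of the interval lies closer to no difference, with the prostate and breast markers. Some genes that this rule covers, and 1 motif searched, are not reported here. Others are named as markers or family members and were chosen after their values were seen. Alternatives were scaling by total counts, DESeq2 1.42.0 size factors, the upper quartile or totals without mitochondrially encoded genes, ratios from the deposited CPM, from moderated log2 CPM or from estimated transcript counts, minimum counts of 1 and 50, halved counts, counts of FOLH1 and STEAP1 with their paralogs added, the point ratio, the 1.5-fold limit and protein-coding genes only.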

Additional observations from a re-analysis of the deposited data

How the results depend on the processing

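No paired analysis was possible because there was 1 library per condition, and for the same reason no replicate could be left out. The directions of TRPM8, PTK7, STEAP1, CD46 and DLL3 were kept under every alternative tried, as were those of STEAP2 and PSCA, whereas FOLH1 kept its sign in 5 of 9 alternatives. The scalings moved every log2 ratio by at most 0.063, and halving the counts left the ratios unchanged. Neither could thus reverse any antigen gene but FOLH1. Deposited CPM and moderated log2 CPM repeated total counts, so the 9 alternatives were not separate checks. With the counts of the paralog added, the log2 ratio was 0.0014 for FOLH1 and 0.45 for STEAP1. The cause was not tested. With total counts, and alike with deposited CPM and with moderated log2 CPM, the log2 ratio was -0.064 for FOLH1, 0.39 for STEAP1, -0.13 for STEAP2 and 0.37 for CD46. DESeq2 size factors gave -0.025 for FOLH1. The upper quartile gave 0.033 for FOLH1 and -0.037 for STEAP2. Totals without mitochondrially encoded genes gave 0.059 for FOLH1, 0.52 for STEAP1, -0.010 for STEAP2, 0.49 for CD46 and 1.21 for TRPM8. Estimated transcript counts gave 0.050 for FOLH1, 0.49 for STEAP1 and 0.57 for DLL3. The antigen genes below no difference numbered 2 with total counts and with DESeq2 size factors, and 0 without mitochondrially encoded genes, against 1. Those above it numbered 6 with the upper quartile, without mitochondrially encoded genes and with estimated transcript counts, against 5. On halved counts, the LY6/uPAR family had 4 genes above no difference against 6, and the Notch pathway 8 against 11. Complement regulators and TRPM channels each had 2 against 3. With total counts, the Notch pathway had 8 above and 7 below, against 11 and 6. Each scaling moves the log2 ratios of all genes alike. The shares of all genes on either side of no difference were not computed under these alternatives. Antigen genes beyond the fold limit numbered 2 at 1.5-fold and 0 with estimated transcript counts, which are fewer, against 1. Of all genes, 985 were wholly beyond 2-fold higher and 807 lower. These became 2042 and 1814 at 1.5-fold, 2695 and 2235 by the point ratio, 609 and 535 on halved counts and 532 and 532 among protein-coding genes. Those higher numbered 638 at a minimum of 50 counts and 595 with estimated transcript counts, over 17670 and 15498 genes tested, respectively. In the gene counts, PSCA had the widest interval of the antigen genes.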
